A study of Striga hermonthica with 6 samples.

Results

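ShortStack, a program that finds small RNA loci from mapped reads, marked 68 of 25056 loci of *Striga hermonthica* as *MIRNA*. The 30 shortest of these outside the close neighbouring pairs are described here. They were chosen by the mark and by a length of 130 nt or less (end minus start plus 1), after the 6 *MIRNA* loci that lie in close pairs had been left out. Of the *MIRNA* loci, 35 had this length before the pairs were removed, and 32 outside the pairs were longer. No count was used to set the length limit, but the mark itself was made by ShortStack from the reads of these same libraries. In the order of all *MIRNA* loci by mean abundance, 3 of the 30 stood among the 10 highest and 27 below them.

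A plant *MIRNA* gene is transcribed by RNA polymerase II into a precursor that folds into a hairpin. DICER-LIKE1 cuts a duplex of the mature miRNA and its partner strand, miRNA*, from that hairpin, and ARGONAUTE1 uses the miRNA to cut matching mRNAs or to block their translation. Conserved plant miRNAs act on transcription factors that set leaf shape, organ identity and growth phase, and in dodder (*Cuscuta*), another parasitic plant, some miRNAs pass through the haustorium into the host.

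The series holds 6 small RNA libraries of *S. hermonthica*, a root parasite of cereals, all of the kibos genotype (an ecotype). The plants grew for 45 days at 30 °C under 16 hours of light on rice (*Oryza sativa* ssp. japonica) of the variety KitaakeX (Kitaake in the methods), and no treatment separates the groups. Of the libraries, 4 are from the haustorium, the organ that joins the parasite to the host root: replicates 1 and 3 carry no stage in their labels, and replicates 1 and 2 of another group are labelled stage 6. The other 2, replicates 1 and 2, are from leaf at stage 6. The stage is not defined, and no source used here ties a replicate to a plant of its own. A p-value here therefore reflects how far these libraries scatter, and part of that scatter may be technical. Haustorium tissue touches rice tissue, and rice reads with sequences identical to *S. hermonthica* were not separated. The loci carry no gene or miRNA family names, so the labelled tissues could not be checked against markers.

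Depth, as the total of counted reads, ran from 3031863 reads in stage 6 haustorium replicate 1 to 8381235 in haustorium replicate 1. The TMM factors, which scale each library so that the typical locus is level between libraries, were 1.78 in stage 6 haustorium replicate 2 and 1.74 in leaf replicate 1, and between 0.609 and 0.979 in the other 4 libraries. These 2 libraries stood apart, so levels are given as CPM (the reads of a locus scaled to the counted reads of its library) and, where the scaling matters, as TMM-scaled CPM. Their labels could not be checked against any named gene. Median fold changes without both libraries are given below, and why these libraries differ from the others was not tested. A count covers all reads of a locus, so mature miRNA and miRNA* are not separated. Below, a pair of values for a group is in replicate order, which for haustorium without a stage means replicates 1 and 3. Where no scale is named, the order and spread of libraries at a locus are in CPM and can change with TMM scaling.

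The 30 loci lie on 23 contigs of the SHERM assembly, with at most 2 on any contig. Their lengths ran from 102 to 130 nt with a median of 122.5 nt. Cluster_23495 was the shortest, on contig CACSLK010034108.1 at positions 14467704 to 14467805. Cluster_21530, on CACSLK010031421.1 at 4487239 to 4487368, and Cluster_15187, on CACSLK010027789.1 at 864201 to 864330, reached the limit of 130 nt. Just outside it was Cluster_10585 with 131 nt, on CACSLK010023752.1 at 319 to 449, whose mean abundance of 51.9 CPM lay inside the range of the shorter loci. Length and abundance did not go together: across the 30 loci, which share their libraries, Spearman's rho between length and mean CPM was 0.0054.

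Between annotated genes lay 28 of the 30. The gene closest to each was a median of 6491.5 nt away, and 9 of the 28 loci had none within 10000 nt. The median was 3519 nt for the 31 longer *MIRNA* loci between genes. Cluster_11925, on CACSLK010024787.1 at 2348381 to 2348499, overlapped the gene SHERM_21683, and the gene table does not say whether it falls in an exon or an intron. Cluster_10466, on CACSLK010023397.1 at 10612670 to 10612791, lay 477 nt before the gene SHERM_19961 in contig order and was the only locus between genes within 1000 nt of one. Cluster_19346, on CACSLK010029869.1 at 15209 to 15329, was on a contig with 3 small RNA loci and no annotated gene. The nearest other small RNA locus was a median of 2377.5 nt away, from 394 nt at Cluster_18880 to 46075 nt at Cluster_1693, whose nearest neighbour was itself a *MIRNA* locus.

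Mean abundance, taken over the 3 group means, had a median of 45.2 CPM, a lowest value of 7.58 CPM and a highest of 739 CPM. The 27 loci below the 10 most abundant had a median of 35.0 CPM and a highest value of 325 CPM. The longer *MIRNA* loci had a median of 95.2 CPM, and all small RNA loci one of 7.86 CPM. Reads came from both tissues at all 30 loci: none was under 10 reads in both libraries of any group. At least 10 reads in every library were counted at 22 loci, against 30 of the 32 longer *MIRNA* loci.

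**Figure D1:**
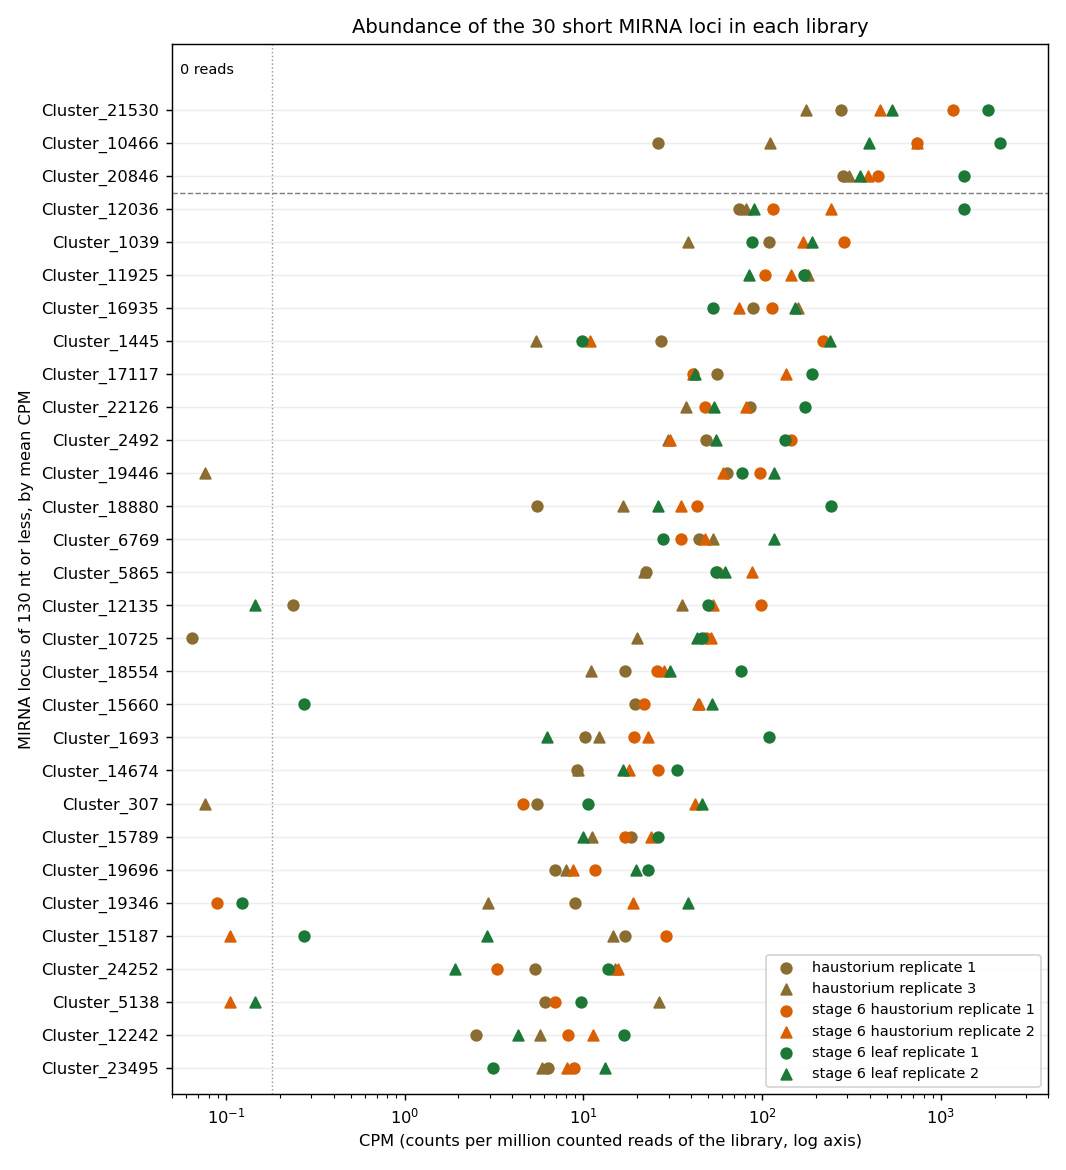
CPM of each of the 30 loci (vertical axis, by mean abundance) in each of the 6 libraries, on a log axis, with colours for the groups, circles for replicate 1 and triangles for the other replicate, and counts of 0 drawn left of the dotted line with no scale. The dashed line separates the 3 loci among the 10 most abundant *MIRNA* loci from the other 27, and 9 points lie left of the dotted line, at 7 loci.

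The 3 most abundant loci took between 38.6% and 64.1% of the reads of the 30, the lowest share in haustorium replicate 1 and the highest in leaf replicate 1. Cluster_21530 had 277 and 175 CPM in haustorium without a stage, 1171 and 454 CPM in stage 6 haustorium, and 1826 and 534 CPM in leaf. Cluster_10466 had 26.0 and 110.3 CPM in haustorium without a stage, 736 and 737 CPM in stage 6 haustorium, and 2155 and 395 CPM in leaf. Cluster_20846, on CACSLK010030875.1 at 699621 to 699749, had 284 and 305 CPM in haustorium without a stage, 447 and 389.6 CPM in stage 6 haustorium, and 1352 and 354 CPM in leaf. At all 3, leaf replicate 1 was the highest library and both libraries without a stage were the lowest, while the other leaf library was below both stage 6 haustorium libraries at Cluster_10466 and Cluster_20846 and between them at Cluster_21530.

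Below these 3, Cluster_12036 was the most abundant, on CACSLK010025823.1 at 54362 to 54485. It had 74.3 and 81.4 CPM in haustorium without a stage, 115 and 242 CPM in stage 6 haustorium, and 1346 and 90.6 CPM in leaf. Leaf replicate 1 stood 5.57 times above the next library, and 5.54 times after TMM scaling, whereas leaf replicate 2 fell among the haustorium libraries on the CPM scale. Cluster_1039, on CACSLK010001140.1 at 3221624 to 3221744, had 109 and 38.3 CPM in haustorium without a stage, 287 and 169 CPM in stage 6 haustorium, and 88.1 and 191 CPM in leaf. Here the highest library was stage 6 haustorium replicate 1, and both leaf libraries overlapped the haustorium libraries.

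Cluster_11925, which overlaps SHERM_21683, had 175 and 181 CPM in haustorium without a stage, 103 and 146 CPM in stage 6 haustorium, and 172 and 84.5 CPM in leaf. In CPM it had the smallest spread of the 30, an SD of log2(CPM + 1) over the 6 libraries of 0.46, and its libraries spanned 2.15-fold. After TMM scaling they ran from 82.2 to 298. Cluster_16935, on CACSLK010027833.1 at 11239437 to 11239553, had 88.7 and 158 CPM in haustorium without a stage, 114 and 74.2 CPM in stage 6 haustorium, and 52.9 and 152 CPM in leaf. The leaf libraries were the lowest and the second highest, and all groups overlapped. With Cluster_15789 and Cluster_23495, the other 2 of the 3 steadiest loci, the abundances differed: Cluster_15789, on CACSLK010027829.1 at 3485762 to 3485888, had 18.5 and 11.2 CPM without a stage, 17.2 and 24.02 CPM at stage 6 and 26.1 and 9.96 CPM in leaf (SD of log2 values 0.53). Cluster_23495 had 6.32 and 5.89 CPM without a stage, 8.91 and 8.05 CPM at stage 6 and 3.13 and 13.2 CPM in leaf (SD of log2 values 0.60). At both of these, the leaf libraries were the ends of the range, one the highest and the other the lowest.

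Cluster_1445, on CACSLK010003174.1 at 455210 to 455327, had 27.2 and 5.45 CPM in haustorium without a stage, 218 and 10.9 CPM in stage 6 haustorium, and 9.80 and 241 CPM in leaf. Stage 6 haustorium replicate 1 and leaf replicate 2 were high and the other library of each of these groups was low, and its SD of log2 values, 2.28, was among the 3 largest. Cluster_17117, on CACSLK010027833.1 at 13694294 to 13694407, had 55.8 and 40.9 CPM without a stage, 41.2 and 135 CPM at stage 6, and 189 and 42.1 CPM in leaf. Cluster_22126, on CACSLK010031421.1 at 24969033 to 24969158, had 85.8 and 37.7 CPM without a stage, 48.2 and 81.1 CPM at stage 6, and 173 and 53.9 CPM in leaf. Both were highest in leaf replicate 1, with leaf replicate 2 inside the range of the haustorium libraries.

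Cluster_2492, on CACSLK010004199.1 at 3561107 to 3561218, had 48.4 and 29.7 CPM in haustorium without a stage, 145 and 30.5 CPM in stage 6 haustorium, and 134 and 54.9 CPM in leaf. Its highest libraries were replicate 1 of stage 6 haustorium and replicate 1 of leaf. Cluster_6769, on CACSLK010014283.1 at 4856757 to 4856879, had 44.5 and 52.9 CPM without a stage, 35.3 and 47.8 CPM at stage 6, and 28.0 and 117 CPM in leaf. In CPM the 4 haustorium libraries lay close together, and the leaf libraries lay below and above all of them. After TMM scaling the leaf libraries still did, at 16.1 and 180, but the haustorium libraries ran from 26.9 to 86.8. Cluster_18880, on CACSLK010028053.1 at 4141736 to 4141854, had 5.49 and 16.6 CPM without a stage, 43.2 and 35.0 CPM at stage 6, and 243 and 26.3 CPM in leaf. Leaf replicate 1 was 5.63 times above the next library, 2.70 times after TMM scaling. Cluster_5865, on CACSLK010012531.1 at 6150848 to 6150964, had 22.3 and 21.9 CPM without a stage, 55.7 and 88.0 CPM at stage 6, and 55.4 and 61.7 CPM in leaf. In CPM it was low in both libraries without a stage and higher in all stage 6 libraries of either tissue. After TMM scaling, leaf replicate 1, at 31.8, was below haustorium replicate 3, at 36.0.

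At 8 of the 30 loci, some library held fewer than 10 reads, and at 7 of them a library held none. Each of the 7 had at least 100 reads in another library, whereas 0 of the 32 longer *MIRNA* loci had a count of 0. Over all loci, 7012 of 25056 had a 0 in some library. A count of 0 allows up to 3 reads, which is 0.358 to 0.989 CPM in these libraries, and covers counting error only, since PCR copies of a molecule were not separated.

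Cluster_19446, on CACSLK010030184.1 at 544013 to 544140, was the most abundant of the 8, with 532 and 0 reads in haustorium without a stage, 296 and 420 reads in stage 6 haustorium, and 570 and 968 reads in leaf. In CPM its 5 other libraries ran from 60.4 to 116, so that a single library set its SD of log2 values of 2.62. Cluster_12135, on CACSLK010026072.1 at 1156514 to 1156638, had the largest SD of the 30, 2.96, with 2 and 241 reads without a stage, 298 and 371 reads at stage 6, and 367 and 0 reads in leaf. It was missing or nearly so from 1 library of the haustorium without a stage and 1 of the leaf, and reached 98.3 and 53.4 CPM in stage 6 haustorium. Cluster_10725, on CACSLK010024531.1 at 240964 to 241075, had 0 and 135 reads without a stage, 148 and 358 reads at stage 6, and 339 and 362 reads in leaf. In CPM its level was even in the 4 stage 6 libraries, from 43.5 to 51.5, and lower in haustorium replicate 3, at 19.9. After TMM scaling those 4 libraries ran from 26.5 to 66.9, and haustorium replicate 3 was among them at 32.7.

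Cluster_15660, on CACSLK010027829.1 at 2087333 to 2087442, had 163 and 298 reads in haustorium without a stage, 66 and 310 reads in stage 6 haustorium, and 2 and 435 reads in leaf. Its lowest and highest CPM, 0.272 and 52.2, were those of the 2 leaf libraries. Cluster_307, on CACSLK010000984.1 at 24523 to 24647, had 46 and 0 reads without a stage, 14 and 292 reads at stage 6, and 78 and 383 reads in leaf. Replicate 2 of both stage 6 tissues held most of its reads, at 42.0 and 46.0 CPM, and the other 4 libraries were at 10.6 CPM or less.

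Cluster_19346 had 75 and 20 reads in haustorium without a stage, 0 and 131 reads in stage 6 haustorium, and 0 and 322 reads in leaf. Cluster_15187 had 143 and 99 reads without a stage, 88 and 0 reads at stage 6, and 2 and 24 reads in leaf. It was the locus with the lowest leaf level, 1.58 ± 1.84 CPM (SD, n = 2), against 15.2 ± 11.9 CPM (SD, n = 4) over all haustorium libraries. The stage 6 haustorium library at 0, which allows up to 0.432 CPM, lay below leaf replicate 2 at 2.88 CPM. It cannot be ordered against leaf replicate 1 at 0.272 CPM. Cluster_5138, on CACSLK010012206.1 at 8019417 to 8019541, had 51 and 180 reads without a stage, 21 and 0 reads at stage 6, and 71 and 0 reads in leaf, with its highest level, 26.5 CPM, in haustorium replicate 3. The libraries at 0 were not the same from locus to locus: each of the 6 libraries had a 0 at 1 or 2 of the 30 loci.

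The 3 least abundant loci were Cluster_5138, Cluster_12242 and Cluster_23495. Cluster_12242, on CACSLK010026072.1 at 4708078 to 4708201, had 2.51 and 5.74 CPM in haustorium without a stage, 8.25 and 11.4 CPM in stage 6 haustorium, and 16.9 and 4.32 CPM in leaf. At 21 to 124 reads a library it was above 10 reads everywhere, as was Cluster_23495 at 23 to 110 reads. Abundance and spread did not go together: across the 30 loci, Spearman's rho between mean CPM and the SD of log2 values was 0.047. The 3 loci not described singly, Cluster_1693, Cluster_14674 and Cluster_24252, ran from 1.92 CPM, in leaf replicate 2 at Cluster_24252, to 109 CPM, in leaf replicate 1 at Cluster_1693.

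The 2 libraries of a group differed widely at many of the loci. In CPM, the higher of the 2 libraries exceeded the lower by at least 2-fold at 14 loci in haustorium without a stage, at 11 in stage 6 haustorium and at 25 in leaf, with counts of 0 set to 3 reads. The median ratio was 1.72, 1.60 and 4.04 in these groups, and 2.11, 2.49 and 2.59 for the longer *MIRNA* loci. In leaf the ratio was at least 10-fold at 8 of the 30 loci. Replicate 1 was the higher leaf library at 19 loci by CPM and at 12 after TMM scaling, so which leaf library was higher depended on the scaling at some loci. In stage 6 haustorium, replicate 1 was higher at 14 loci by CPM and at 26 after TMM scaling. The ratios were not counted after TMM scaling, which widened some and narrowed others. Cluster_20846 in stage 6 haustorium went from 447 and 389.6 CPM to 535 and 219. Cluster_18554 in leaf went from 76.2 and 30.5 CPM to 43.8 and 46.9. The wider spread in leaf is thus shown on the CPM scale only.

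**Figure D2:**
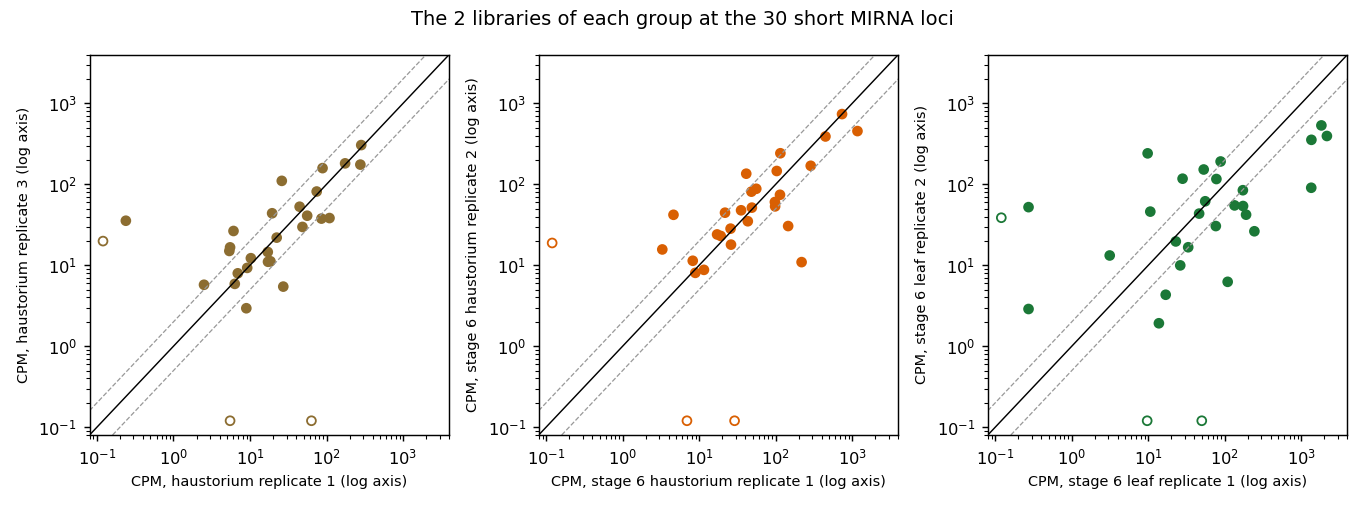
CPM of the 30 loci in the 2 libraries of each group, on log axes, with the line of equality (solid) and 2-fold limits (dashed), and open points beside an axis for a count of 0 in that library. On this scale, without TMM scaling, 25 of the 30 leaf points lie at or beyond the dashed lines, against 14 and 11 in the haustorium groups.

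A single library was at least 2-fold above all others at 10 loci: leaf replicate 1 at 7 of them, leaf replicate 2 at Cluster_6769 and Cluster_19346, and haustorium replicate 3 at Cluster_5138. After TMM scaling the count was 11, with 3 in leaf replicate 1 and 4 in leaf replicate 2. In CPM, all 6 libraries were within 4-fold of each other at 5 loci and spanned at least 10-fold at 14, counts of 0 included.

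Stage 6 haustorium was compared with haustorium without a stage. On the CPM scale the stage 6 libraries were the higher ones at many of the loci, but most of this went with the scaling of the libraries. The stage 6 mean was above the other haustorium mean at 24 of 30 loci by CPM and at 17 after TMM scaling. Both stage 6 libraries were above both others at 15 of the 30 loci, beside 25.7% of all loci and 12 of the 32 longer *MIRNA* loci. After TMM scaling this held at 3 loci, beside 17.9% of all loci: Cluster_10466, Cluster_12036 and Cluster_5865, which were among the 15. Over all loci tested, the log2 fold changes themselves had a median of 0.74 without TMM scaling and of 0.02 with it. In bulk tissue, fewer cells of a type and less RNA per cell cannot be told apart.

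The nearest libraries of the 2 haustorium groups were at least 2-fold apart in CPM at 4 of the 30 loci higher at stage 6, beside 8.62% of all loci, and at 0 lower at stage 6, beside 4.74%. After TMM scaling the counts were 1, Cluster_10466, beside 5.28% of all loci, and 0, beside 6.66%. At Cluster_10466 the gap was 6.68-fold, with group means of 68.1 ± 59.6 and 737 ± 0.48 CPM (SD, n = 2 each). It was 2.50-fold at Cluster_5865, with 22.1 ± 0.265 against 71.9 ± 22.8 CPM, and 2.46-fold at Cluster_10725, where a count of 0 in haustorium replicate 1 enters the mean of 9.94 ± 14.1 against 50.2 ± 1.89 CPM. At Cluster_18880 it was 2.10-fold, with 11.1 ± 7.88 against 39.1 ± 5.84 CPM. In TMM-scaled CPM the gap was 2.29-fold at Cluster_10466 and 1.38-fold at Cluster_5865, the groups overlapped at Cluster_10725 and Cluster_18880, and at Cluster_12036 they were only 1.02-fold apart. The SDs of 0.48 and 0.265 hold in CPM only. After TMM scaling the stage 6 libraries were at 881 and 415 at Cluster_10466, and those without a stage at 22.8 and 36.0 at Cluster_5865. The log2 fold changes after TMM were 2.64 (standard error 1.25) at Cluster_10466, 0.98 (0.81) at Cluster_5865, 1.42 (2.16) at Cluster_10725 and 1.12 (1.13) at Cluster_18880. With single libraries left out, Cluster_10466 ran from 1.86 without haustorium replicate 1 to 4.61 without haustorium replicate 3, and Cluster_5865 from 0.71 to 1.35 without the same libraries. Cluster_10725 ran from 0.44 without haustorium replicate 1 to 11.50 without haustorium replicate 3, when only the library at 0 was left in its group and the value is no measure of size. Cluster_18880 ran from 0.26 without stage 6 haustorium replicate 1, or 0.40 without haustorium replicate 1, to 2.67 without haustorium replicate 3.

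In the other direction, both stage 6 libraries were below both libraries without a stage at Cluster_11925, 1 of 30 loci beside 8.98% of all loci. Its group means were 125 ± 30.2 and 178 ± 4.66 CPM (SD, n = 2 each), and its log2 fold change was -1.21 (standard error 0.75). After TMM scaling Cluster_6769 and Cluster_22126 joined it, 3 loci beside 16.9% of all loci.

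In edgeR's quasi-likelihood test between the haustorium groups, 0 of the 30 loci and 0.0% of the 24421 loci tested passed an adjusted p of 0.05. At an unadjusted p under 0.05 were 0 of the 30, beside 4.39% of all loci, and the lowest p was 0.0824 at Cluster_10466. DESeq2 also called 0 of the 30, beside 1.63% of all loci, with 1 of the 30, Cluster_10466, at an unadjusted p under 0.05, beside 9.3% of all loci. The log2 fold changes of the 30 ran from -2.65 to 2.86 with a median of 0.31, beside 0.02 over all loci tested, and the median turned to -0.25 without stage 6 haustorium replicate 1 and to -0.02 without haustorium replicate 1. The median standard error was 1.13.

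Leaf was compared with all haustorium libraries and, at the stage that both tissues share in the labels, with stage 6 haustorium alone. The leaf mean was above the haustorium mean at 22 of 30 loci by CPM and at 24 after TMM scaling, and above the stage 6 haustorium mean at 21 and 23. Of the 3 group means in CPM, leaf was the highest at 18 loci, stage 6 haustorium at 7 and haustorium without a stage at 5, and the last was the lowest at 23. The medians of these group means over the 30 loci were 17.1 CPM in haustorium without a stage, 45.8 CPM in stage 6 haustorium and 58.1 CPM in leaf. This order is on the CPM scale only. In TMM-scaled CPM the medians of single libraries were 19.4 and 34.3 without a stage and 50.55 and 24.4 at stage 6 of the haustorium. They were 29.6 and 68.8 in leaf, so the groups overlapped.

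Few of these differences held library by library. Both leaf libraries were above all 4 haustorium libraries at 2 of 30 loci, beside 1.63% of all loci, and below them at 0, beside 2.0% of all loci (after TMM scaling also 0, beside 3.75%). Cluster_18554, on CACSLK010028053.1 at 84762 to 84884, had 17.2 and 11.0 CPM in haustorium without a stage, 25.7 and 28.3 CPM in stage 6 haustorium, and 76.2 and 30.5 CPM in leaf. Cluster_19696, on CACSLK010030184.1 at 4071322 to 4071445, had 6.92 and 7.95 CPM without a stage, 11.5 and 8.77 CPM at stage 6, and 22.9 and 19.7 CPM in leaf. In CPM the leaf libraries were clear of the others at Cluster_19696 and only just so, through replicate 2, at Cluster_18554. After TMM scaling this turned round. At Cluster_18554 leaf was then at 43.8 and 46.9, against 30.8 in the highest haustorium library. At Cluster_19696 leaf replicate 1, at 13.1, was below stage 6 haustorium replicate 1, at 13.8. The log2 fold changes after TMM were 1.15 (standard error 0.54) for Cluster_18554 and 1.17 (standard error 0.71) for Cluster_19696. Leaving out single libraries moved the first between 0.95 and 1.42 and the second between 0.43, without leaf replicate 2, and 1.65, without leaf replicate 1.

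After TMM scaling the leaf libraries were above all haustorium libraries at 3 loci, beside 4.85% of all loci: Cluster_12036, Cluster_18554 and Cluster_20846. Cluster_19696 was not among them, so Cluster_18554 was the 1 locus that both scalings share. Against stage 6 haustorium alone, both leaf libraries were above both others at 2 loci, beside 4.76% of all loci, and these were again Cluster_18554 and Cluster_19696. After TMM scaling there were 4, beside 12.4% of all loci, with Cluster_12036, Cluster_20846 and Cluster_22126 in place of Cluster_19696. They were below at Cluster_10725 and Cluster_12135, 2 loci beside 8.55% of all loci, and after TMM scaling at Cluster_12135 alone, beside 11.5%. At Cluster_10725 the levels were 44.8 ± 1.90 CPM in leaf and 50.2 ± 1.89 CPM in stage 6 haustorium (SD, n = 2 each), a small gap whose direction turned with the scaling (log2 fold change after TMM 0.10).

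**Figure D3:**
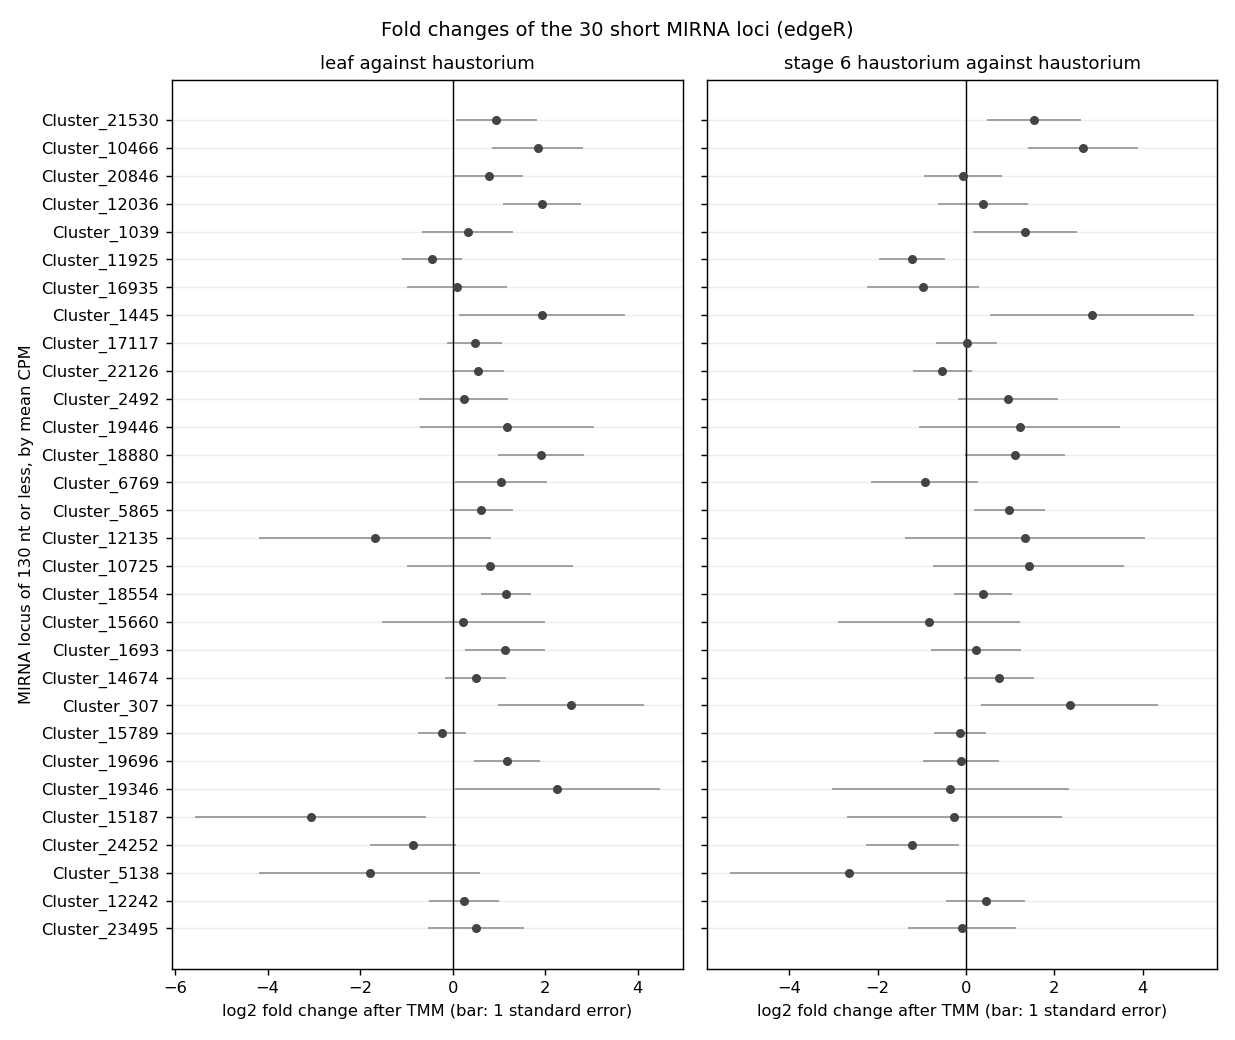
Log2 fold changes of the 30 loci after TMM (horizontal axis, points) with 1 standard error to each side (bars), for leaf against all haustorium (left, mean of both groups) and for stage 6 against no stage within the haustorium (right). On the left 24 of 30 points lie above 0 and on the right 17, and the widest bars belong to loci with a count of 0 in some library, such as Cluster_12135 and Cluster_15187.

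In edgeR's test of leaf against both haustorium groups, 0 of the 30 loci and 0.0% of all loci tested passed an adjusted p of 0.05. Of the 30, 0 had an unadjusted p under 0.05, beside 3.25% of all loci, and the lowest p was 0.0677 at Cluster_12036. Its log2 fold change was 1.93 (standard error 0.85), with 718 ± 887 CPM in leaf (SD, n = 2) and 128 ± 77.8 CPM in haustorium (SD, n = 4). DESeq2 called 0 of the 30, beside 0.802% of all loci, and Cluster_12036 was the 1 of the 30 with an unadjusted p under 0.05 there, beside 7.18% of all loci. Against stage 6 haustorium alone, edgeR called 0 of the 30, beside 0.0% of all loci, with 0 of the 30 at an unadjusted p under 0.05, beside 2.0% of all loci, and DESeq2 called 0, beside 0.463%, also with 0 at an unadjusted p under 0.05, beside 5.58%.

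As a list, the 30 loci had a median log2 fold change of 0.58 for leaf against haustorium, beside 0.12 over all loci tested and 0.63 over the longer *MIRNA* loci. Values were above 0 at 24 of the 30, beside 56.6% of all loci. They ran from -3.07 at Cluster_15187 to 2.56 at Cluster_307, both loci with a count of 0 in a haustorium library, and the median standard error was 0.94. Leaving out leaf replicate 2 gave a median of -0.13, and leaving out stage 6 haustorium replicate 1 gave 1.19. Against stage 6 haustorium alone the median was 0.50, beside 0.05 over all loci tested, with 23 of 30 values above 0, beside 52.7% of all loci. There it became -0.15 when leaf replicate 2 was left out, and 0.0018 and 1.37 when stage 6 haustorium replicates 2 and 1 were. Without both libraries with high TMM factors, which leaves 1 leaf and 1 stage 6 haustorium library, this median was 0.044. The contrasts share libraries, so their medians are not independent of each other.

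In haustorium without a stage the 30 loci together held 0.152% and 0.148% of counted reads, against 0.399% and 0.305% at stage 6 and 0.832% and 0.280% in leaf. The 95% Wilson intervals were narrow, 0.825% to 0.839% for leaf replicate 1 and 0.277% to 0.284% for leaf replicate 2, and cover counting error only. The libraries without a stage were the lowest, and the leaf libraries lay above and below both stage 6 haustorium libraries. The mean share was 0.556% ± 0.390 in leaf (SD, n = 2) and 0.251% ± 0.123 in haustorium (SD, n = 4). The difference was 0.305 percentage points (two-sided exact permutation test, p = 0.2). The 15 possible splits allow no p below 0.0667, so the test cannot decide whether the tissues differ. It also treats the 4 haustorium libraries as interchangeable, although those without a stage were lower than those at stage 6. Without leaf replicate 1 the difference was 0.0293 percentage points, and without leaf replicate 2 it was 0.581.

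**Figure D4:**
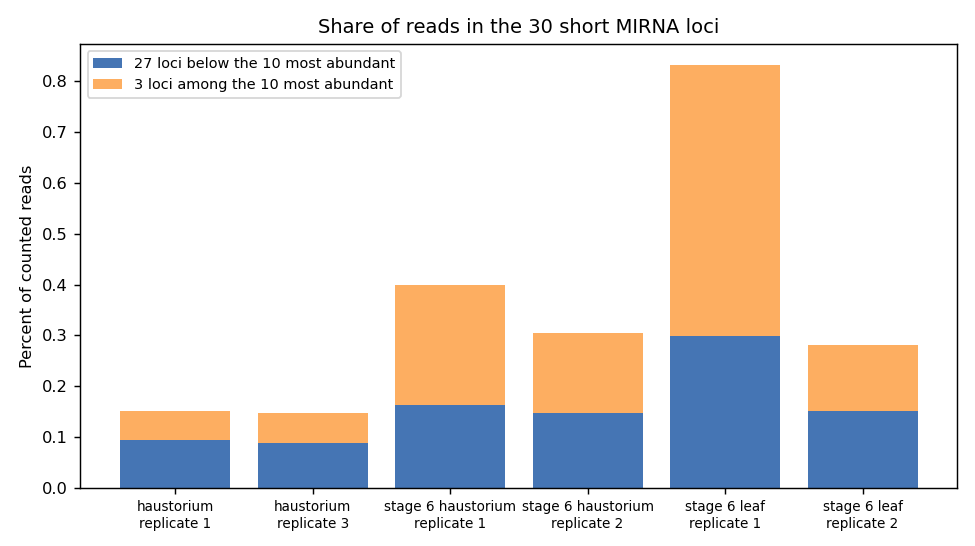
Percent of all counted reads (vertical axis) in the 30 loci for each library, split into the 3 loci among the 10 most abundant *MIRNA* loci and the 27 below them. Leaf replicate 1 is the tallest bar at 0.832%, and the lower part, the 27 loci, runs from 0.0886% to 0.299%.

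The 27 less abundant loci held 0.0934% and 0.0886% without a stage, 0.163% and 0.147% at stage 6 of the haustorium, and 0.299% and 0.152% in leaf. Leaf replicate 2 lay between the stage 6 haustorium libraries, and the tissues differed by 0.102 percentage points (two-sided exact permutation test, p = 0.133). Among the reads of all *MIRNA* loci, the 30 took 20.4% and 24.3% without a stage, 26.8% and 25.3% at stage 6 of the haustorium, and 36.0% and 25.6% in leaf. The leaf mean of 30.8% ± 7.37 (SD, n = 2) and the haustorium mean of 24.2% ± 2.73 (SD, n = 4) differed by 6.56 percentage points (two-sided exact permutation test, p = 0.133), and leaf replicate 2 again lay between the stage 6 haustorium libraries. Without leaf replicate 1 that difference was 1.35 percentage points, and without leaf replicate 2 it was 11.8. For the 27 less abundant loci alone, the share of *MIRNA* reads differed by 0.810 percentage points (two-sided exact permutation test, p = 0.533). Adjusted by the Benjamini-Hochberg method over the 4 share tests, the exact permutation p-values were 0.267 for the first 3 and 0.533 for the last. The limit on p set by the number of splits holds for all 4 tests, so they cannot decide whether the shares differ.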

How the data were processed

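Small RNA was sequenced in 6 libraries of 3 groups, 2 libraries each. According to the methods and the submitters' processing notes, the authors removed adapters and used ShortStack 4.0.4, with its default settings, on the SHERM assembly. They deposited the raw count of reads per locus for each library, with coordinates and the *MIRNA* mark. The counts were used as deposited, and CPM was computed over the total of the 25056 loci of a library, its depth.

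All loci were fitted in R 4.3.3 with edgeR 4.0.16 (a quasi-likelihood test of 3 groups, TMM, filterByExpr, p-values adjusted by Benjamini-Hochberg over all loci, called under 0.05), which kept 24421 loci, all 30 described loci among them, with 3 residual degrees of freedom. The spread between libraries of a group, given by edgeR as the common biological coefficient of variation, was 1.001. With so wide a spread and 2 libraries a group, a count of 0 loci called does not show that levels were equal. The code was tested on simulated data. The alternatives were DESeq2 1.42.0, other scalings and filters, a block for the replicate number, and each library left out. An exact permutation test over libraries compared shares of reads. Gene positions came from a table of 29520 genes of the same assembly. Other steps used matplotlib 3.10.9, numpy 2.4.6, pandas 2.3.3 and scipy 1.17.1 in Python 3.11.15.

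Loci are named by rule: the 12 most abundant below the 10 highest *MIRNA* loci, those under 10 reads in a library, those whose groups do not overlap (between haustorium groups with a gap of 2-fold), the 3 steadiest and 3 most variable, the shortest, longest and next longer, those within 1000 nt of a gene, those among the 10 highest, and the 3 least abundant. Cluster_1693, Cluster_14674 and Cluster_24252 fall outside it and were named after their values were seen, to account for all 30. The loci and lists were chosen with earlier results of these data known. No genome sequence was used here, so no locus sequence is shown.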

Additional observations from a re-analysis of the deposited data

How the results depend on the processing

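edgeR called 0 of the 30 loci in all 3 contrasts under each alternative run with it: other scaling, filters, leaving out each library or both libraries with high TMM factors, a replicate block (0 called) and a crossed replicate block (0 called). In each of these runs edgeR also called 0 of all loci tested, so these counts are not particular to the 30 loci. DESeq2 was run once, on all libraries, and called 0 of the 30. Beside this, it called 0.802% of all loci for leaf against haustorium. The shares were 0.463% for leaf against stage 6 haustorium and 1.63% between the haustorium groups. The deviations of same-numbered leaf and stage 6 haustorium libraries were weakly negatively correlated over all loci tested (-0.13). With 2 libraries per group both numbers give this same value, which cannot show whether same-numbered libraries share a plant. The numbers were not taken as pairs in the main fit. With the replicate block 1 residual degree of freedom is left, and the median log2 fold changes were 0.60 for leaf against haustorium, 0.39 for leaf against stage 6 haustorium and 0.50 for stage 6 haustorium against haustorium without a stage. With single libraries left out, these medians ran from -0.13 to 1.19, from -0.15 to 1.37 and from -0.25 to 0.66, and without both libraries with high TMM factors they were 0.44, 0.044 and 0.68. With library totals in place of TMM they were 0.82, 0.23 and 0.92, beside 0.32, -0.11 and 0.74 over all loci tested.

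With fewer libraries to clear, counts of loci whose groups do not overlap can only grow or stay. Loci higher in leaf than in every haustorium library numbered 2 to 13: 13 without leaf replicate 2 (beside 39.0% of all loci), 9 without leaf replicate 1 (4.17%) and 5 when stage 6 haustorium replicate 1 was left out (2.74%). Loci lower in leaf numbered 0 to 5: 5 without leaf replicate 1 (20.5%), 4 without leaf replicate 2 (5.95%) and 1 when stage 6 haustorium replicate 2 was left out (4.81%). Loci higher at stage 6 than in the other haustorium libraries numbered 3 after TMM scaling and 16 to 22 with a library left out (31.6% to 66.3% of all loci), and loci lower there numbered 3 and 2 to 4 (14.9% to 31.5%). These counts for the haustorium groups, with the crossed block, were added after the data had been seen. The count of loci with 10 reads in every library was 22, and 21 to 24 under other floors and without single libraries.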
